A study of Mus musculus with 6 samples.

Results

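The cell cycle genes of the whole mouse adrenal gland were followed in 6 RNA sequencing libraries. The set has 38 genes of 54532 in the count table: 15 act in DNA replication and S phase, and 23 in mitosis. They were chosen by symbol from textbook roles with a rule that uses no measured value, but with earlier results of these data known. All 38 were found in the table by symbol and Ensembl identifier, and all 38 passed the filter on low counts. Whole glands of 2 groups of mice were compared, 3 labelled WT and 3 labelled VEGF/LysM, with no treatment, age or sex in the labels. The labels spell out no allele for VEGF/LysM. The series' text gives its aim as the effect of VEGF-A made by macrophages on the gland. LysM is another name of the lysozyme gene Lyz2, whose promoter is active in myeloid cells in general and not in adrenal macrophages alone. The labels do not say whether replicates are separate animals, so each p reflects how far these samples differ from one another, and part of that may be technical.

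A dividing cell first licenses its replication origins by loading the MCM helicase, then copies its DNA with the help of the sliding clamp PCNA and of newly made deoxynucleotides. Cyclin B and CDK1 then drive mitosis, in which kinesins and the spindle checkpoint separate the chromosomes. Transcripts of the first kind are typically induced by E2F factors. Those of the second kind depend on promoter elements called CHR (cell cycle genes homology region) and CCAAT boxes. In the adrenal cortex, dividing cells lie mainly in the outer zones, from which cells move inward, while endothelial and immune cells can divide as well.

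Promoters are shown because both gene groups differ in matches to E2F sites and CHRs, which played no part in choosing the members. RefSeq promoter windows (GRCm38.p6, 250 bases before to 50 after the start site) were found for 12 S phase and 19 mitosis members. No window was matched for Mcm4, Gins2, Ccne2, Ccna2, Aurkb, Kif20a and Tpx2. An E2F site was searched as TTTCCCGC, TTTGGCGC, TTTCGCGC or TTTGCCGC on both strands, so that neighbouring sites may overlap. It was present in 6 of 12 S phase members, 1 of 19 mitosis members and 2.61% of all 27025 genes with a window. A CHR, searched as TTTGAA or TTCGAA on both strands, was present in 2 of 12 S phase members, 14 of 19 mitosis members and 21.7% of all genes. All 14 of these mitosis members also held a CCAAT box (CCAAT on either strand), a pair found in 2 of 12 S phase members and 9.65% of all genes. The CCAAT box by itself was common in both groups. It was present in 8 of 12 S phase members, 16 of 19 mitosis members and 41.1% of all genes. The S phase members with an E2F match were Cdc6, Cdt1, Mcm3, Mcm5, Mcm6 and Mcm7. The S phase members with a CHR match were Mcm2 and Mcm7, and Cdk1 was the mitosis member with an E2F match. Such a match of letters is a description and does not show that a factor binds there.

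Stretches upstream of the start site follow for 2 MCM subunits, with E2F matches in capitals, and for 3 mitosis genes, with CHR matches in capitals.
Mcm5 promoter, chr8:75109309-75109408, plus strand: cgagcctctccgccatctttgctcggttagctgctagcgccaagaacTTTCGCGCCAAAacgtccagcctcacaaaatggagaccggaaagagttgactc
Mcm6 promoter, chr1:128359736-128359835, minus strand: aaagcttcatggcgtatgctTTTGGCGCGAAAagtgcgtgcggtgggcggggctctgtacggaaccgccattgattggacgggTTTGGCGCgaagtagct
Cdk1 promoter, chr10:69352943-69353062, minus strand: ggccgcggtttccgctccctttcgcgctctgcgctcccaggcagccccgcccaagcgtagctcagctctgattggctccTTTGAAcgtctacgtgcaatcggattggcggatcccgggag
Mki67 promoter, chr7:135716430-135716529, minus strand: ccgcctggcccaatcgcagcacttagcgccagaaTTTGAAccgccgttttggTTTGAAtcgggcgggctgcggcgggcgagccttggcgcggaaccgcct
Top2a promoter, chr11:99024190-99024389, minus strand: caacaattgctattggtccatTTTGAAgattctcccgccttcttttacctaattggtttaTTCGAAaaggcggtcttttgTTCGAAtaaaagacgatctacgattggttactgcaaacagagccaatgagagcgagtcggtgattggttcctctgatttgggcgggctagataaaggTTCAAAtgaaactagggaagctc
In Mcm5 and Mcm6 a pair of overlapping E2F matches on opposite strands forms 1 longer run of capitals, and Mcm6 has 3 matches in all. Top2a had 4 CHR and 6 CCAAT matches in its window, Mki67 had 2 and 3, and Cdk1 had 2 and 3, of which 1 CHR match of Cdk1 lies closer to the start than the stretch shown.

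Libraries held 16476879 to 18671950 counts, and 22230 to 23491 genes had at least 1 count. Levels are given as CPM (counts scaled to a common library size) after TMM scaling, which corrects for differences in composition. Vegfa measured 295, 241 and 332 CPM across WT replicates 1 to 3, against 180, 193 and 501 across VEGF/LysM replicates 1 to 3, so whole-gland Vegfa overlapped between groups. Lyz2 measured 186, 275 and 263 CPM in WT and 132, 111 and 134 in VEGF/LysM, lower without overlap (log2 fold change -0.94 ± 0.19, adjusted p = 0.999, edgeR). All 8 cortex markers and all 7 medulla markers of the adrenal passed the filter. WT replicate 3 stands apart: its 12 hepatocyte markers summed to 64134 CPM of the unscaled library total, against 132 to 402 in the other 5 libraries. Its adrenal cortex markers summed to 21933 on that scale, against 44884 to 55041 elsewhere. VEGF/LysM replicate 3 also held liver transcripts, at a lower level that the range hides, because the sums of the other 4 libraries are mostly Hp. Albumin RNA (Alb) reached 174 CPM in VEGF/LysM replicate 3 on the same scale and 39912 in WT replicate 3, against 0.0594 to 1.09 in the other 4 libraries. Fga and Fgb, of fibrinogen, had 100 and 140 counts in VEGF/LysM replicate 3 and 0 in those 4. Results are therefore given with and without WT replicate 3, and the summary values also without both libraries.

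Most cell cycle members had a lower mean in VEGF/LysM glands, and none passed the test. With all 6 libraries, 35 of 38 members had a log2 fold change (VEGF/LysM minus WT) below 0, against 49.7% of the 16300 genes tested. Their median was -0.30, against 0.0013 over all genes tested. edgeR's quasi-likelihood test called 0 of 38 at an adjusted p of 0.05 (0% of all genes), and the smallest adjusted p of a member was 0.999. DESeq2 and limma-voom also called 0 members. At an unadjusted p under 0.05, edgeR gave 2 members lower, Rrm2 and Top2a (1.94% of all genes) and 0 higher (0.871% of all genes). DESeq2 gave 3 lower, where 542 of the 16300 genes tested were under 0.05 in either direction. limma-voom gave 0, where 224 were. All 3 VEGF/LysM values lay below all 3 WT values for 10 of 38 members (2.41% of all genes), and all 3 above for 0 (3.54% of all genes). The members are read from the same libraries, so these counts are not 38 separate observations. In a whole gland, fewer dividing cells and less of these RNAs per cell cannot be told apart.

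Without WT replicate 3 the direction was kept by most members and the size shrank. A log2 fold change below 0 was then found for 32 of 38 members, against 48.5% of 16659 genes, with a median of -0.20. The edgeR test called 0 members (0.006% of all genes), and an unadjusted p under 0.05 was reached by 0 members lower (0.786% of all genes) or higher (1.3% of all genes). DESeq2 called 0 members there too. Both groups did not overlap for 9 members lower (6.9% of all genes) and 0 higher (7.49% of all genes). These 9 were all among the 10 found with every library. Without both WT replicate 3 and VEGF/LysM replicate 3, 29 of 38 members were below 0, with a median of -0.08. With VEGF/LysM replicate 3 as the one library left out, 35 of 38 were below 0, with medians of -0.17 for S phase and -0.28 for mitosis members. With WT replicate 1 left out, 12 mitosis members did not overlap, while the share over all genes was 6.23%.

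**Figure D1:**
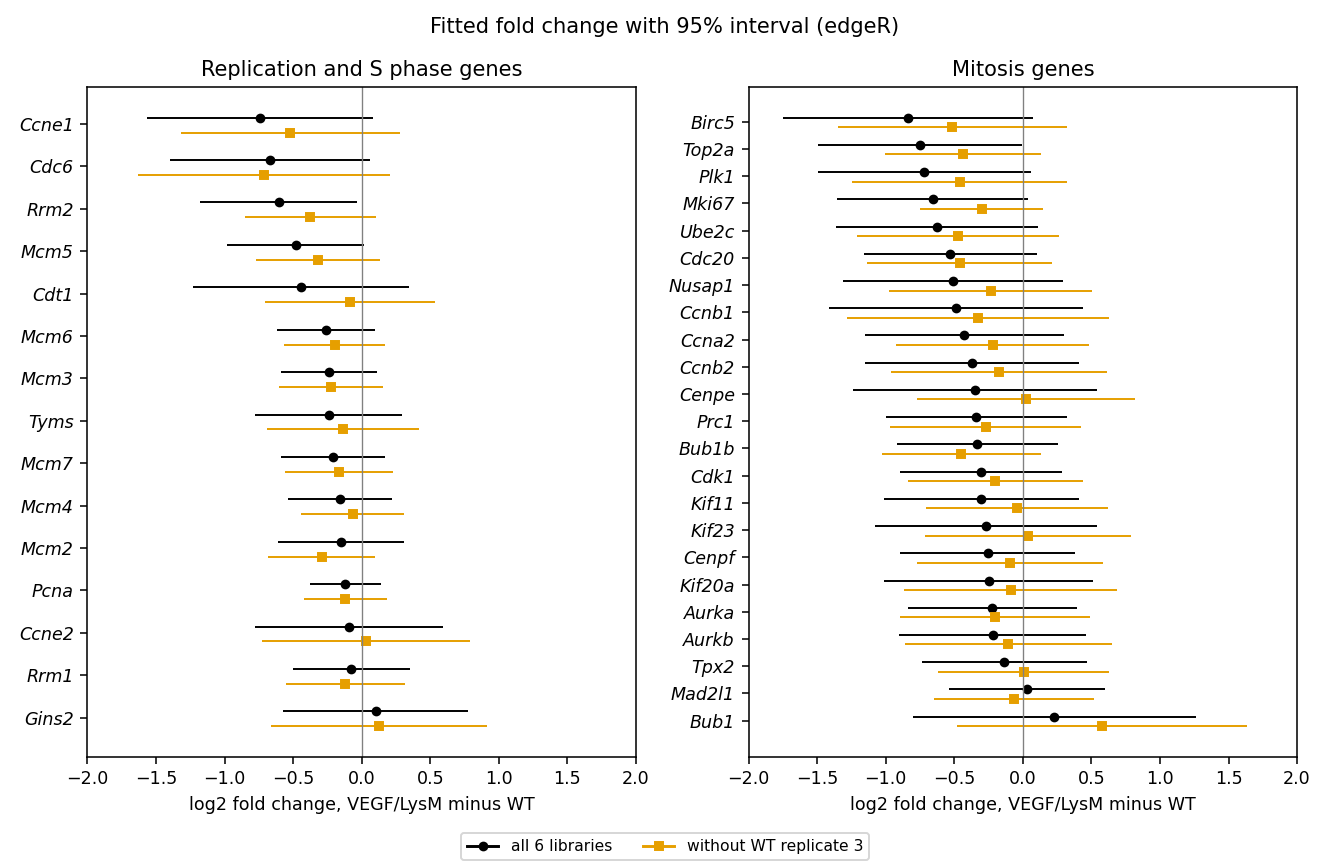
Log2 fold change of each member, VEGF/LysM minus WT, with its 95% interval from edgeR, for all 6 libraries (black circles) and without WT replicate 3 (orange squares), S phase genes left and mitosis genes right. With all 6 libraries the intervals of Rrm2 and Top2a lie below 0 and the other 36 span 0.

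Among the genes that supply deoxynucleotides, Rrm2, the regulated small subunit of ribonucleotide reductase, gave the smallest p of the S phase members. Rrm2 (ENSMUSG00000020649, chromosome 12, 24708241 to 24714146, GRCm38) measured 11.1, 11.3 and 17.2 CPM across WT replicates 1 to 3, against 9.03, 8.57 and 8.42 across VEGF/LysM replicates 1 to 3. The VEGF/LysM libraries were close together and all below WT, and WT replicate 3 was the highest. Its log2 fold change was -0.61 ± 0.24 (SE; 95% interval -1.18 to -0.04; adjusted p = 0.999, edgeR), and -0.37 ± 0.21 without WT replicate 3. Rrm1, the large subunit, which is less tied to S phase, overlapped between groups at 31.0 to 39.1 CPM in the WT glands against 26.7 to 35.3 in the VEGF/LysM glands (log2 fold change -0.07 ± 0.18). The difference between both subunits was not tested. Tyms, thymidylate synthase, ranged over 6.80 to 9.43 CPM in the WT glands, against 6.74 to 7.06 in the VEGF/LysM glands (-0.24 ± 0.23).

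The factors that load the helicase differed in level and in pattern. Cdc6, which loads the helicase (chromosome 11, 98907801 to 98923940), measured 1.82, 2.68 and 2.08 CPM in the WT glands, against 1.47, 1.31 and 1.35 in the VEGF/LysM glands. The groups did not overlap, with or without WT replicate 3, but the gene rests on 23 to 52 counts per library. Its log2 fold change was -0.67 ± 0.31 (adjusted p = 0.999, edgeR), and -0.71 ± 0.41 without WT replicate 3. Cdt1, its partner in loading (chromosome 8, 122568015 to 122573554), measured 7.68, 6.24 and 12.9 CPM in the WT glands, against 7.56, 6.78 and 5.36 in the VEGF/LysM glands. Only WT replicate 3 was high: the log2 fold change of -0.44 ± 0.33 became -0.09 ± 0.27 without it, and 0.05 when VEGF/LysM replicate 3 was left out too. Gins2, a subunit of the active helicase, was 1 of the 3 members above 0, at 2.67 to 3.30 CPM in the WT glands against 2.84 to 4.06 in the VEGF/LysM glands (0.10 ± 0.29).

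The 6 MCM subunits, which form 1 ring, all had a log2 fold change below 0, from -0.48 (Mcm5) to -0.15 (Mcm2), and none passed. Mcm5 (chromosome 8, 75109569 to 75128439) measured 14.0, 16.6 and 20.9 CPM in the WT glands, against 13.2, 12.6 and 11.2 in the VEGF/LysM glands. Every VEGF/LysM library was below every WT library, by a small margin between VEGF/LysM replicate 1 and WT replicate 1. Its log2 fold change was -0.48 ± 0.21 (adjusted p = 0.999, edgeR), and -0.32 ± 0.20 without WT replicate 3. Mcm2 (chromosome 6, 88883474 to 88898780) had another pattern, with 46.0, 50.9 and 35.3 CPM in the WT glands, against 46.8, 37.5 and 34.7 in the VEGF/LysM glands. Here WT replicate 3 was the lowest WT library, 0.45 log2 units below the mean of WT replicates 1 and 2, whereas Mcm5 was 0.45 above it. The log2 fold change of Mcm2 was -0.15 ± 0.19, and -0.29 ± 0.17 without WT replicate 3. Mcm3 (26.4 to 27.5 CPM in the WT glands against 20.2 to 24.0 in the VEGF/LysM glands) and Mcm6 (32.5 to 37.9 and 26.5 to 32.5 CPM) did not overlap between groups, Mcm6 by a margin that vanished at 3 digits. Mcm4 and Mcm7 overlapped, with log2 fold changes of -0.16 ± 0.16 and -0.21 ± 0.16.

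Pcna, the sliding clamp of DNA polymerase, was the most abundant member per length, at 49.6 CPM per kilobase of transcript over the 6 libraries. The median of the S phase members on that per-length scale was 4.99, and that of the mitosis members 1.71. Pcna (chromosome 2, 132249162 to 132253314) measured 78.5, 77.9 and 78.6 CPM in the WT glands, against 69.6, 75.9 and 71.0 in the VEGF/LysM glands. After TMM scaling the 3 WT libraries were nearly equal, WT replicate 3 included, and the VEGF/LysM libraries all lay below them. Before scaling, WT replicate 3 had the fewest Pcna counts of the 6 libraries, at 1058 against 1187 to 1512, although its library total was not the lowest. The log2 fold change of Pcna, -0.12 ± 0.11, had a 95% interval of -0.38 to 0.14, and scaling to library size only gave -0.05. Ccne1, a cyclin that starts S phase (chromosome 7, 38097984 to 38107534), measured 5.86, 3.97 and 7.43 CPM in the WT glands, against 2.76, 3.0 and 4.53 in the VEGF/LysM glands. VEGF/LysM replicate 3 was above WT replicate 2, so the groups overlapped, with a log2 fold change of -0.74 ± 0.35 (adjusted p = 0.999, edgeR) and -0.52 ± 0.35 without WT replicate 3. Its paralogue Ccne2 gave -0.09 ± 0.29, and 0.03 ± 0.33 without WT replicate 3.

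Of the markers of cycling cells, Mki67 and Top2a showed how far WT replicate 3 sets the size. Mki67, which encodes the nuclear antigen Ki-67 (ENSMUSG00000031004, chromosome 7, 135689784 to 135716361), measured 17.6, 15.9 and 31.1 CPM in the WT glands, against 11.9, 15.6 and 13.4 in the VEGF/LysM glands. WT replicate 3 was far above the other WT libraries, and VEGF/LysM replicate 2 was just under WT replicate 2. The log2 fold change was -0.66 ± 0.29 (adjusted p = 0.999, edgeR) with all libraries and -0.30 ± 0.20 without WT replicate 3. Top2a, topoisomerase II alpha, which untangles replicated chromosomes (chromosome 11, 98992943 to 99024189), measured 12.1, 18.8 and 27.0 CPM in the WT glands, against 9.67, 11.5 and 13.2 in the VEGF/LysM glands. The groups overlapped, since VEGF/LysM replicate 3 exceeded WT replicate 1. Its log2 fold change was -0.75 ± 0.31 (adjusted p = 0.999, edgeR), and -0.44 ± 0.25 without WT replicate 3.

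**Figure D2:**
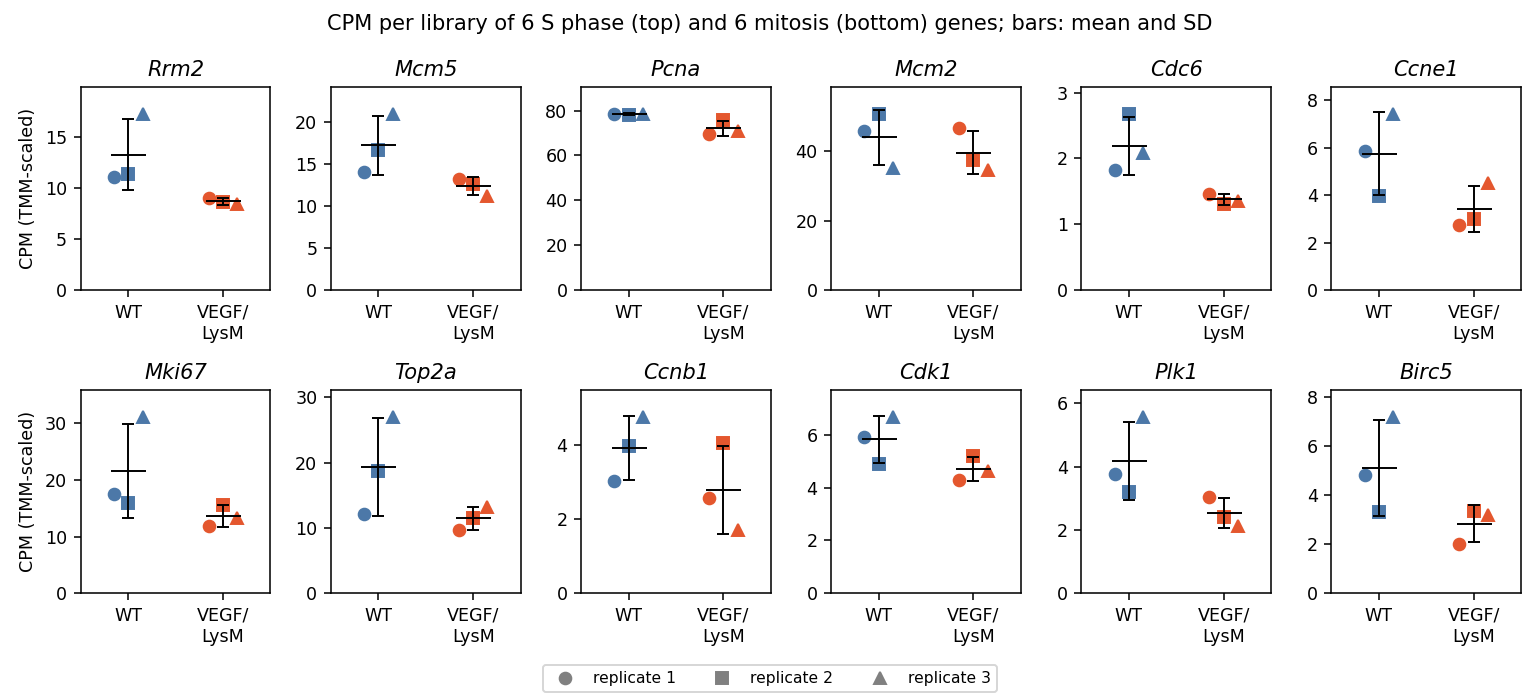
TMM-scaled CPM in each library of 6 S phase genes (top) and 6 mitosis genes (bottom), by group, with circles, squares and triangles for replicates 1, 2 and 3 and bars for mean and SD (n = 3). WT replicate 3 is the highest point for Rrm2, Mcm5, Ccne1 and all 6 mitosis genes, while Pcna is level within WT and Mcm2 is lowest there in WT replicate 3.

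The mitotic cyclins and their kinase overlapped between groups. Ccnb1, cyclin B1 (chromosome 13, 100778650 to 100786570), measured 3.01, 3.97 and 4.75 CPM in the WT glands, against 2.58, 4.05 and 1.71 in the VEGF/LysM glands. VEGF/LysM replicate 2 lay inside the WT range and replicate 3 was the lowest of all, on 29 counts. Cdk1, the kinase that cyclin B activates (chromosome 10, 69335146 to 69352938), measured 5.91, 4.90 and 6.68 CPM in the WT glands, against 4.28, 5.20 and 4.65 in the VEGF/LysM glands. Log2 fold changes were -0.49 ± 0.39 for Ccnb1 and -0.31 ± 0.25 for Cdk1, and -0.33 and -0.20 without WT replicate 3. Ccnb2, cyclin B2, had -0.37 ± 0.33, and Ccna2, cyclin A2 of S phase and early mitosis, -0.43 ± 0.31.

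Kinases of mitosis and their partners came next. Plk1, polo-like kinase 1 (chromosome 7, 122159439 to 122169873), measured 3.75, 3.19 and 5.57 CPM in the WT glands, against 3.05, 2.42 and 2.12 in the VEGF/LysM glands. Its groups did not overlap, with a log2 fold change of -0.72 ± 0.33 (adjusted p = 0.999, edgeR) and -0.46 ± 0.35 without WT replicate 3. Birc5, survivin of the chromosomal passenger complex (chromosome 11, 117849251 to 117855743), measured 4.83, 3.30 and 7.20 CPM in the WT glands, against 1.99, 3.36 and 3.18 in the VEGF/LysM glands. It had the most negative log2 fold change of the 38 members, -0.84 ± 0.38 (adjusted p = 0.999, edgeR), although VEGF/LysM replicate 2 was above WT replicate 2, and -0.51 ± 0.37 without WT replicate 3. Aurkb, the kinase of the same complex, gave -0.22 ± 0.29, and Aurka, the kinase of the spindle poles, also gave -0.22 ± 0.26, with Aurka at 4.69 to 5.12 CPM in the WT glands against 3.41 to 5.10 in the VEGF/LysM glands.

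The anaphase-promoting complex and the spindle checkpoint that restrains it shared no single pattern. Cdc20, the activator of that complex, measured 7.05, 6.49 and 7.80 CPM in the WT glands, against 4.28, 6.31 and 4.18 in the VEGF/LysM glands, without overlap (-0.53 ± 0.27). Ube2c, its ubiquitin-conjugating enzyme, had -0.63 ± 0.31, with VEGF/LysM replicate 2 above WT replicate 2. Bub1b, the checkpoint kinase BUBR1, measured 7.85, 11.4 and 7.50 CPM in the WT glands, against 7.27, 6.73 and 7.30 in the VEGF/LysM glands, where WT replicate 2 and not WT replicate 3 was high (-0.33 ± 0.25). Bub1 and Mad2l1, of the same checkpoint, were the other 2 members above 0, at 0.23 ± 0.44 and 0.03 ± 0.24. Bub1 rests on 22 to 58 counts, the 58 in VEGF/LysM replicate 2.

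The spindle and cytokinesis genes overlapped between groups without exception. Kif11, Kif20a and Kif23, motor proteins of the spindle and midzone, had log2 fold changes of -0.30, -0.25 and -0.27, which became -0.04, -0.09 and 0.04 without WT replicate 3. Cenpe, a kinetochore motor (chromosome 3, 135212537 to 135273611), measured 2.45, 3.81 and 6.01 CPM in the WT glands, against 2.87, 3.47 and 3.24 in the VEGF/LysM glands. Its direction rested on WT replicate 3: -0.35 ± 0.38 with that library and 0.02 ± 0.35 without it. Cenpf, a kinetochore protein, had -0.26 ± 0.27, Tpx2, a spindle assembly factor, -0.14 ± 0.25, Nusap1, a microtubule binder, -0.51 ± 0.34, and Prc1, the midzone bundler, -0.34 ± 0.28. Tpx2 became 0.01 without WT replicate 3.

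S phase and mitosis genes were set beside each other by their mean log2 deviation in each library from each gene's mean over the 6 libraries. The S phase mean was 0.04, 0.09 and 0.29 in WT replicates 1 to 3 and -0.09, -0.15 and -0.18 in VEGF/LysM replicates 1 to 3, so the groups did not overlap. The mitosis mean was -0.05, 0.09 and 0.50 in WT and -0.16, -0.04 and -0.34 in VEGF/LysM, where VEGF/LysM replicate 2 lay just above WT replicate 1 after TMM scaling. WT replicate 3 held the highest level of 11 of 15 S phase and 20 of 23 mitosis members. VEGF/LysM replicate 3 held the lowest level of 9 of 15 and 12 of 23. Both extremes of the set are thus in the libraries numbered 3, in opposite directions.

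**Figure D3:**
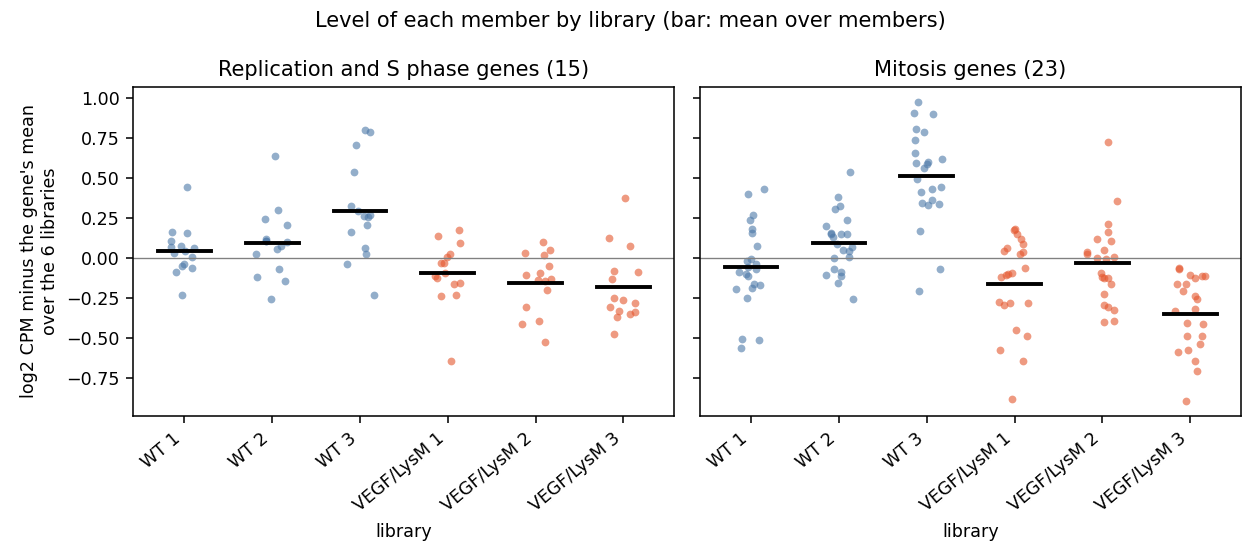
Log2 CPM of each member minus its mean over the 6 libraries, 1 point per gene, with a bar at the mean over members, for 15 S phase genes (left) and 23 mitosis genes (right). The bar of WT replicate 3 stands highest in both panels and that of VEGF/LysM replicate 3 lowest.

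The difference between both gene groups was small and had no constant sign. S phase minus mitosis was 0.10, -0.004 and -0.21 in WT and 0.07, -0.11 and 0.16 in VEGF/LysM. The groups overlapped, with means of -0.04 ± 0.16 and 0.04 ± 0.14 (SD, n = 3), a difference of 0.08. Against WT replicates 1 and 2 alone it was -0.0085. In the fitted values the S phase median was -0.24 and the mitosis median -0.34 with all libraries, -0.16 and -0.20 without WT replicate 3, and -0.12 and -0.07 without both libraries numbered 3. The order of both medians thus turned when both were left out. No p is given for these scores, because the members were chosen with earlier results of these data known.

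**Figure D4:**
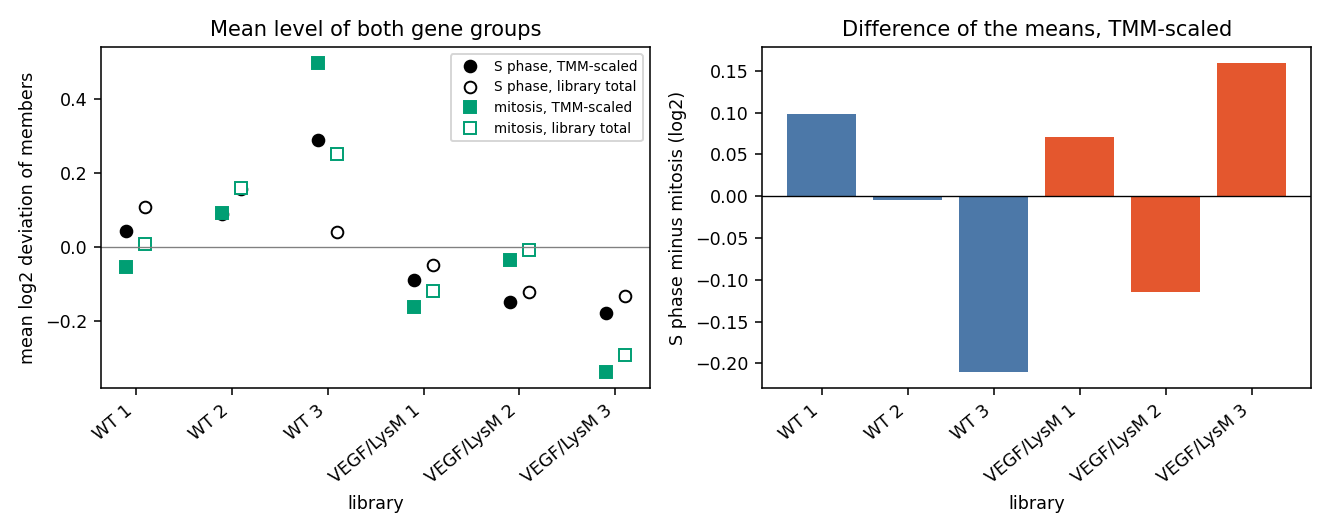
Left, mean log2 deviation of the S phase (circles) and mitosis (squares) members in each library, TMM-scaled (filled) and on the library total (open). Right, S phase minus mitosis on the TMM scale, by library, where WT replicate 3 has the most negative value (-0.21) and VEGF/LysM replicate 3 the most positive (0.16).

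How high WT replicate 3 stands depends on the scaling. Its TMM factor was 0.84, against 1.02 to 1.05 in the other libraries. After TMM scaling its mitosis members were a median of 0.45 log2 units above WT replicates 1 and 2 and its S phase members 0.19 above, with all genes tested at 0.0050. Scaled to the library total alone, the medians were 0.14 for mitosis and -0.13 for S phase members, with all genes at -0.31. The mean deviation of the mitosis members then no longer overlapped between groups. It was 0.008, 0.16 and 0.25 in WT replicates 1 to 3 against -0.12, -0.008 and -0.29 in VEGF/LysM replicates 1 to 3. That of the S phase members did not overlap on either scale. Rescaling shifts all genes of a library alike, so the distance between both gene groups is the same on either scale by construction.

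Markers of other cell types differed between the same libraries. B cell markers (9 of 10 passed the filter, none at 0 in every library) summed to 288, 159 and 954 CPM of the library total in WT and to 98.9, 137 and 63.4 in VEGF/LysM, so the sum, most of which is Ighm, was lower in every VEGF/LysM library and highest in WT replicate 3. By gene, 6 of the 9 tested were lower without overlap (2.41% of all genes), while Ighm, Ighd and Ms4a1 overlapped. Those of T and NK cells (11 of 11 passed) summed to 13.8, 19.7 and 206 in WT and to 11, 13.1 and 27.6 in VEGF/LysM. Adrenal medulla markers summed highest in VEGF/LysM replicate 3, at 9774 against 2956 to 7276 in the others. Most of this sum is Chga and Chgb. Pnmt differed, with 486 CPM after TMM scaling in VEGF/LysM replicate 1 against 327 in VEGF/LysM replicate 3. Genes listed for the progenitor zone of the adrenal cortex summed to 1703, 1624 and 667 in WT and to 1778, 1396 and 1755 in VEGF/LysM, with WT replicate 3 lowest. This sum rests on Dlk1, Dab2 and Wnt4, and its genes differed in direction: without WT replicate 3 the log2 fold change was -0.48 for Shh, -0.51 for Wnt4 and -0.53 for Rspo3, and 0.32 for Gli1, 0.20 for Dab2 and 0.20 for Dlk1. None of these 6 passed edgeR's test. Dlk1, like the medulla markers other than Pnmt, was highest in VEGF/LysM replicate 3, at 840 CPM after TMM scaling against 312 to 605 in the others. Erythroid precursor markers (3 of 8 passed) summed highest in WT replicate 1, at 20.9 against 2.77 to 5.94 elsewhere. Much of that sum is Slc4a1, which did not pass, with 178 counts there and 1 to 6 elsewhere. Of the 3 that passed, only Ermap was highest in WT replicate 1 after TMM scaling. Klf1 and Epor were highest in WT replicate 3, at 3.64 and 2.52 CPM against 1.71 and 1.65 in WT replicate 1. The part of these cell types in the result was not tested.

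Other genes of the cell cycle, listed apart from the members, gave 0 genes past the threshold in either fit. Of 40 other replication genes 30 had a log2 fold change below 0 (median -0.15), and of 43 tested other mitosis genes 37 did (median -0.30), or 28 of 40 and 34 of 44 without WT replicate 3. The groups did not overlap for 2 of 40 and 9 of 43, all lower in VEGF/LysM, against 2.41% of all genes lower and 3.54% higher; 2 of 40 is near that background. Mcm10, a helicase activator, reached 25.5 CPM in WT replicate 3 alone, with 1.77 to 3.0 in the other libraries, and its log2 fold change went from -2.16 ± 0.96 to -0.16 ± 0.39 without that library. Uhrf1, which maintains DNA methylation at replication forks, went from -0.94 ± 0.43 to -0.35 ± 0.28. Of the mitosis genes with the smallest p, Kif22, a chromosome motor, had -0.82 ± 0.33, and Ndc80, of the outer kinetochore, had -1.08 ± 0.45 at 0.578 to 2.97 CPM.

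Genes listed as regulators of the cycle showed no shared direction. Of 10 genes listed under cyclins and kinases of the first gap phase, 5 were below 0 (median 0.0018). Those of smallest p were Cdk7 at 0.37 ± 0.20 and Ccnd2, a D cyclin, at 0.29 ± 0.19. The 14 CDK inhibitors and related brakes had 8 below 0 (median -0.02). Cdkn1a, the inhibitor p21, measured 38.4, 40.1 and 95.6 CPM in the WT glands, against 22.8, 54.6 and 32.0 in the VEGF/LysM glands (-0.67 ± 0.45, and -0.11 ± 0.31 without WT replicate 3), and Cdkn1b, the inhibitor p27, had 0.16 ± 0.14. Among 20 E2F, DREAM and FOXM1 regulators 8 were below 0 (median 0.02). E2f2, an activating E2F, measured 8.99, 7.88 and 11.5 CPM in the WT glands, against 7.33, 3.42 and 5.71 in the VEGF/LysM glands (-0.79 ± 0.34), while E2f6, a repressor, ranged over 35.6 to 43.4 CPM in the WT glands, against 47.8 to 51.5 in the VEGF/LysM glands (0.28 ± 0.14). Both groups of values did not overlap for either gene, and neither passed (adjusted p = 0.999, edgeR).

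Spread among WT libraries exceeded counting error for many of the scarcer members. Mean counts per library ran from 30.8 for Cdc6 to 1298 for Pcna, so counting error alone is 18% and 2.78% of the level. The coefficient of variation among WT libraries was 44.0% for Cenpe against 12.8% from counting, 38.7% against 12.0% for Kif23 and 38.5% against 12.3% for Birc5. WT replicate 3 was the highest WT library for each of these genes. Among VEGF/LysM libraries the values were 9.43% for Cenpe and 1.88% for Kif23, below counting error, and 26.1% for Birc5, above it. For Pcna the WT value was 0.469% after TMM scaling, below counting error. The distance from the estimate to either end of the 95% interval had a median of 0.50 log2 units for S phase and 0.73 for mitosis members. A difference smaller than this distance leaves the interval spanning 0. A larger one need not pass the test, because the intervals are not adjusted for the number of genes tested. Rrm2 and Top2a had intervals below 0 and an adjusted p of 0.999 (edgeR). Exons of 10 members overlap a gene on the opposite strand (Ccna2, Ccne2, Cdc20, Gins2, Kif20a, Mcm7, Nusap1, Plk1, Prc1 and Ube2c), and their counts are uncertain because the libraries do not mark strand.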

How the data were processed

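Whole-gland RNA of 6 samples was made into libraries by Smart-seq2, per the labels' protocols, a method that does not mark strand. kallisto, DESeq2 1.36.0 and mm10 are named in the submitters' processing notes, with no role stated for any of them. Values as deposited are whole-number counts per gene, not normalised, and columns were matched to samples by title. Symbols matched 54409 of 54532 identifiers. filterByExpr (minimum count 10, minimum total 15) kept 16300 genes. edgeR 4.0.16 (R 4.3.3) fitted the quasi-likelihood model on TMM-scaled counts with a single group term, and Benjamini-Hochberg adjustment ran over every gene tested (threshold 0.05). Standard errors and 95% intervals come from that fit. Deviations use log2 CPM with a prior count of 2. Levels per length use GENCODE transcripts (GRCm38), the longest principal one per gene. Steps were tested on simulated data. The smallest exact p for 3 against 3 is 0.1, so single values had no test of their own. Alternatives were other scalings, filters, DESeq2 1.42.0, limma-voom (limma 3.58.1), a replicate block and left-out libraries. Counts of members below 0 or without overlap were added to these after the data were seen. Values in every library were given for Mki67, Top2a, Pcna, Mcm2, Ccnb1 and Cdk1, for the 4 genes of smallest p and the 2 most shifted without WT replicate 3 in each member group. In each other list the 2 genes of smallest p were named. Cdc20 and Bub1b were added after their values were seen. Members and lists were chosen with earlier results of these data known.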

Additional observations from a re-analysis of the deposited data

How the results depend on the processing

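With all 6 libraries, other scalings, filters and tools called 0 genes (459 at an unadjusted p under 0.05 by edgeR, 542 by DESeq2 and 224 by limma-voom), and the medians of both member groups stayed below 0. Scaling to the library size only left 3 S phase members lower without overlap in place of 6 (1.97% of all genes). Mitosis members without overlap stayed at 4. Leaving out each library in turn gave S phase medians from -0.29 to -0.16, mitosis medians from -0.48 to -0.20 and S phase minus mitosis from 0.04 to 0.24. It left 4 to 12 mitosis members without overlap, where 2 libraries against 3 also raise the share over all genes from 2.41%: 12 without WT replicate 1 (6.23% of all genes), 7 without WT replicate 2 (9.36%), 9 without VEGF/LysM replicate 1 (5.24%) and 9 without VEGF/LysM replicate 2 (8.33%). It called 0 or 1 gene. The 1 gene, without WT replicate 3, was Sumo2, no member. Without WT replicate 3 and VEGF/LysM replicate 3 the S phase median was -0.12, the mitosis median -0.067 and their difference -0.057. In that fit Cdt1 turned to 0.051 and Cenpe to 0.025. With single libraries left out, Cdt1 ran from -0.64 to -0.085 and Cenpe from -0.61 to 0.023, its value without WT replicate 3. Of the fits without WT replicate 3, the one with no filter called 171 genes, DESeq2 11 and the replicate block 7, among them 0 members; the block there gave medians of -0.13 (S phase) and -0.08 (mitosis). With all libraries the replicate block called 0 genes, with medians of -0.23 and -0.31. Same-numbered libraries did not deviate together in every pair (correlations 0.06, -0.01 and 0.25). The labels do not say whether numbers pair the samples, and these correlations cannot decide it. The cause of each change was not tested.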
